A study of Mus musculus with 8 samples.

Results

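The genes described here are 10 markers of liver sinusoidal endothelial cells, namely Lyve1, Stab1, Stab2, Pecam1, Cdh5, Kdr, Clec4g, Fcgr2b, Tek and Eng, out of 26682 loci listed in each table of the study. They were chosen by name, for what is known of this cell type, but with earlier results of these data known. Each symbol matched 1 locus, and all 10 were tested in every table.

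Sinusoidal endothelial cells form the wall of the liver's capillaries, a sieve of open pores without a continuous basement membrane. They clear hyaluronan, collagen fragments, immune complexes and modified proteins from portal blood through scavenger receptors, which continuous endothelium largely lacks. Like all blood vessel endothelium they are held together by VE-cadherin and PECAM-1, and they read vascular growth factors through VEGFR2, TIE2 and endoglin. Several of these markers are shared: Lyve1 is also made by lymphatic endothelium and some resident macrophages, Stab1 by some macrophages, Fcgr2b by B cells and macrophages, and Pecam1 by platelets and leukocytes.

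Whole liver RNA of 8 mice, all of the C57Bl/6J background, was sequenced in 4 groups of 2: KO mice given IUB288, KO mice given vehicle, WT mice given IUB288 and WT mice given vehicle. IUB288 is an agonist of the glucagon receptor, and the design text sets mice with a floxed Fxr gene against wild types, to ask which liver responses to glucagon signalling need the bile acid receptor FXR. All mice had fasted for 2 h, and the labels mention both high-fat and standard chow feeding but do not assign a diet to any mouse. The recombinase and its promoter, the dose, the length of treatment and the age are not stated by the labels or the design text, so it is not known whether endothelial cells of KO mice carry the deletion. Nr1h4, the gene of FXR, on mm10 chromosome 10 from 89453976 to 89533648, had 25.7 FPKM in KO IUB288 livers and 37.4 FPKM in WT IUB288 livers in the authors' deposited table (log2 fold change -0.54 ± 0.41, q = 1.00). Because this value is summed over all exons, it is no check of the KO label.

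The authors deposited 1 pooled FPKM value (fragments scaled to transcript length and to library size) per group and locus, with no value per mouse, and library depth is unknown. A log2 fold change is therefore given with the standard error that the authors' test statistic implies (after ±) and with its 95% interval. A gene is called when its q-value, adjusted by the authors over all tested loci, is under 0.05. Nothing says that the 2 mice of a group were independent in every step. The p-values are the authors' Cuffdiff estimates from 2 mice per group and speak only of these livers. How far they reflect the spread between the 2 mice at a locus cannot be seen without values per mouse. Each of the 3 tables was scaled on its own: FPKM values of KO IUB288 were 1.05 times, and those of WT IUB288 1.08 times, as high in the treatment tables as in the genotype table. In whole liver, fewer cells of a type and less RNA per cell cannot be told apart.

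All 10 markers had an FPKM above 0.5 in every group, and their levels spanned more than an order of magnitude. Clec4g, which encodes the lectin LSECtin, was the highest in each group, with 23.6 FPKM in KO IUB288, 25.3 in KO vehicle, 32.6 in WT IUB288 and 31.3 in WT vehicle livers in the authors' deposited tables. Lyve1, the hyaluronan receptor first described on lymphatic vessels, was the lowest in KO IUB288, KO vehicle and WT IUB288 livers and stood above Tek in WT vehicle livers. On the FPKM scale WT vehicle livers placed Eng (20.5), Stab2 (16.3), Fcgr2b (13.4) and Stab1 (10.3) below Clec4g, then Kdr (5.80), Cdh5 (5.15), Pecam1 (5.10), Lyve1 (4.61) and Tek (1.51), per the authors' deposited table. Neighbours in that order such as Kdr, Cdh5, Pecam1 and Lyve1 lie closer together than the median standard error of the markers' fold changes in that table (0.47 on the log2 scale), so their order is not firm. Stab2 ranked below Fcgr2b and Eng in KO IUB288 livers but above both in KO vehicle livers.

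**Figure D1:**
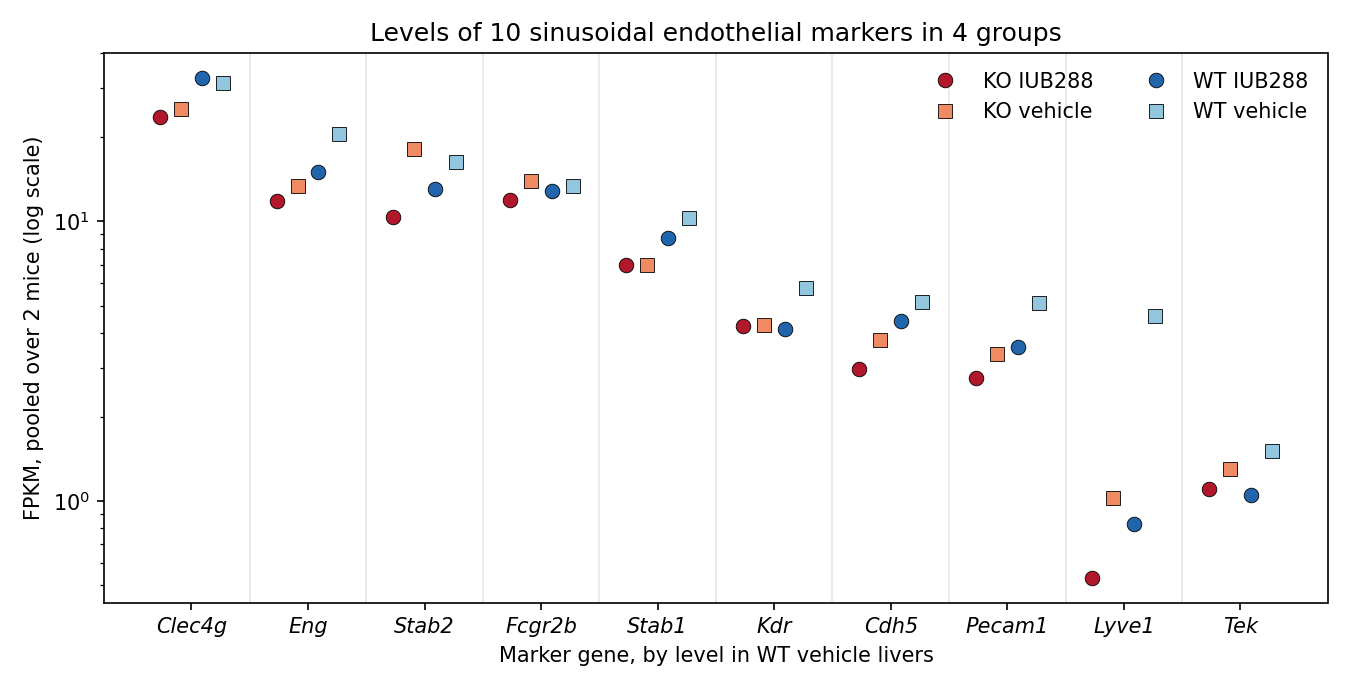
FPKM of the 10 markers (vertical log axis) in KO IUB288, KO vehicle, WT IUB288 and WT vehicle livers, each point 1 value pooled over 2 mice, from the treatment tables, with no error shown since none per group was deposited. Lyve1 stands at 4.61 FPKM in WT vehicle livers and between 0.532 and 1.03 in the other groups, while most markers lie close together across the groups.

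IUB288 was first set against vehicle in WT livers. Of the 10 markers Lyve1 fell, and the other 9 were not called. Among all 15164 tested loci 3.4% were called lower and 3.96% higher, against 1 lower and 0 higher of the 10 markers, so the count rests on 1 gene. By fold change 9 of the 10 lay below 0, where 47.6% of all tested loci did. Their median log2 fold change was -0.38, against 0.03 over all tested loci and 0.01 over tested loci of 0.5 to 50 FPKM. Markers of the same cell type, read in the same pooled livers, are not independent of one another. Such shares, here and in the other comparisons, are descriptions and not tests. Highly expressed loci as a whole lay above 0 in this table, with a median of 0.21 over 3980 loci of at least 10 FPKM in both groups. Relative to that median all 10 markers lay below 0, Clec4g included (-0.16). Several markers, such as Kdr and Tek, did not reach 10 FPKM themselves, and relative to all tested loci Clec4g stayed above 0 (0.02). The median over loci of at least 10 FPKM was 0.08 in KO and -0.10 in KO against WT, where Fcgr2b alone changed sign relative to it (0.02). The markers' FPKM summed to 96.3 in WT IUB288 livers and 114 in WT vehicle livers.

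Lyve1 lies on mm10 chromosome 7 from 110850607 to 110862953 on the minus strand and has 6 exons in its longest annotated transcript. It had 0.829 FPKM in WT IUB288 livers and 4.61 FPKM in WT vehicle livers in the authors' deposited table, 5.55-fold lower. The log2 fold change of Lyve1 was -2.47 ± 0.57, with a 95% interval of -3.60 to -1.35 (p = 5e-05 and q = 0.00163, the authors' deposited table). That p is the smallest listed and is shared by other loci, such as Cd36, Nrp2 and Col1a1, so it does not rank Lyve1. Its fold change puts Lyve1 at the 1.57th percentile of the fold changes of tested loci. With a pseudocount of 1 the change of Lyve1 was -1.62, since its level under IUB288 is below 1 FPKM. Whether both WT vehicle mice had the higher level cannot be seen in pooled values.

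The other scavenger and uptake receptors were not called in WT. Stab2, the main hyaluronan clearance receptor of the sinusoids, lies on chromosome 10 from 86841210 to 87007942 and had 13.1 FPKM in WT IUB288 and 16.3 FPKM in WT vehicle livers (log2 fold change -0.32 ± 0.51, q = 0.731, the authors' deposited table). Its paralog Stab1, a scavenger receptor for modified lipoproteins and extracellular matrix proteins, on chromosome 14 from 31131119 to 31168641, had 8.70 and 10.3 FPKM in WT IUB288 and WT vehicle livers in the authors' deposited table (-0.24 ± 0.56, q = 0.837). Clec4g, on chromosome 8 from 3716071 to 3720651, had 32.6 FPKM in WT IUB288 livers against 31.3 FPKM in WT vehicle livers in the authors' deposited table, a log2 fold change of 0.06 ± 0.40 with an interval of -0.73 to 0.84 (q = 0.960). Fcgr2b, the inhibitory IgG receptor through which these cells take up small immune complexes, on chromosome 1 from 170959722 to 170976079, had 12.9 and 13.4 FPKM in WT IUB288 and WT vehicle livers (-0.06 ± 0.44, q = 0.963, the authors' deposited table). Both Clec4g and Fcgr2b had almost equal levels with and without IUB288.

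Among the junction and growth factor receptor genes the fold changes in WT ran from -0.53 to -0.23, none called. Pecam1, an adhesion molecule of endothelial junctions on chromosome 11 from 106654218 to 106715281, had 3.55 FPKM in WT IUB288 and 5.10 FPKM in WT vehicle livers (-0.52 ± 0.44, q = 0.383, the authors' deposited table). Cdh5, the VE-cadherin gene on chromosome 8 from 104101625 to 104144502, had 4.39 and 5.15 FPKM in WT IUB288 and WT vehicle livers (-0.23 ± 0.42, q = 0.790, the authors' deposited table). Kdr encodes VEGFR2, the main signalling receptor of VEGF-A, and lies on chromosome 5 from 75932886 to 75979150. The authors' deposited table gave Kdr 4.12 FPKM in WT IUB288 and 5.80 FPKM in WT vehicle livers (-0.49 ± 0.40, q = 0.371). Tek, the angiopoietin receptor TIE2, on chromosome 4 from 94739300 to 94874949, had 1.05 FPKM in WT IUB288 and 1.51 FPKM in WT vehicle livers (-0.53 ± 0.51, q = 0.485, the authors' deposited table). Eng, the co-receptor endoglin for BMP9 and TGF-beta, on chromosome 2 from 32646595 to 32704579, had 15.1 and 20.5 FPKM in WT IUB288 and WT vehicle livers in the authors' deposited table (-0.45 ± 0.94, q = 0.817), with the widest error of the 10.

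Eng and Stab1 share their listed span with a neighbour on the opposite strand, and no label or note says whether reads were counted by strand. The locus listed as Eng ends at 32704579, past the annotated end of Eng at 32682669, and so also spans Fpgs and 4 noncoding genes. Eng overlaps Fpgs, the folylpolyglutamate synthase gene, by 61 annotated bases, and Fpgs rose to 178 FPKM in WT IUB288 livers, against 72.4 FPKM in WT vehicle livers (1.30 ± 0.54, q = 0.0113, the authors' deposited table). Stab1 overlaps Nt5dc2 by 112 bases, and Nt5dc2 had 12.7 FPKM in WT IUB288 livers and 4.47 FPKM in WT vehicle livers in the authors' deposited table (1.51 ± 0.93, q = 0.264). The overlaps are short beside the longest annotated transcripts of Eng (3422 bases) and Stab1 (7999 bases). Reads in such overlaps cannot be told apart, so the values of Eng and Stab1 are uncertain to an extent that was not tested. Noncoding genes also lie within the listed spans of Stab2 (5), Cdh5 (1), Clec4g (1) and Fcgr2b (1), and their part in those values was not tested.

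The width of the intervals limits what the 9 uncalled markers show. Their intervals in WT together ran from -2.29 to 1.39 on the log2 scale. Loci that were called in this table at 0.5 to 50 FPKM had changes of at least 0.89 in 95% of cases, with a median size of 1.46, so a change as large as that of Pecam1, Kdr or Tek was below what the table usually called.

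**Figure D2:**
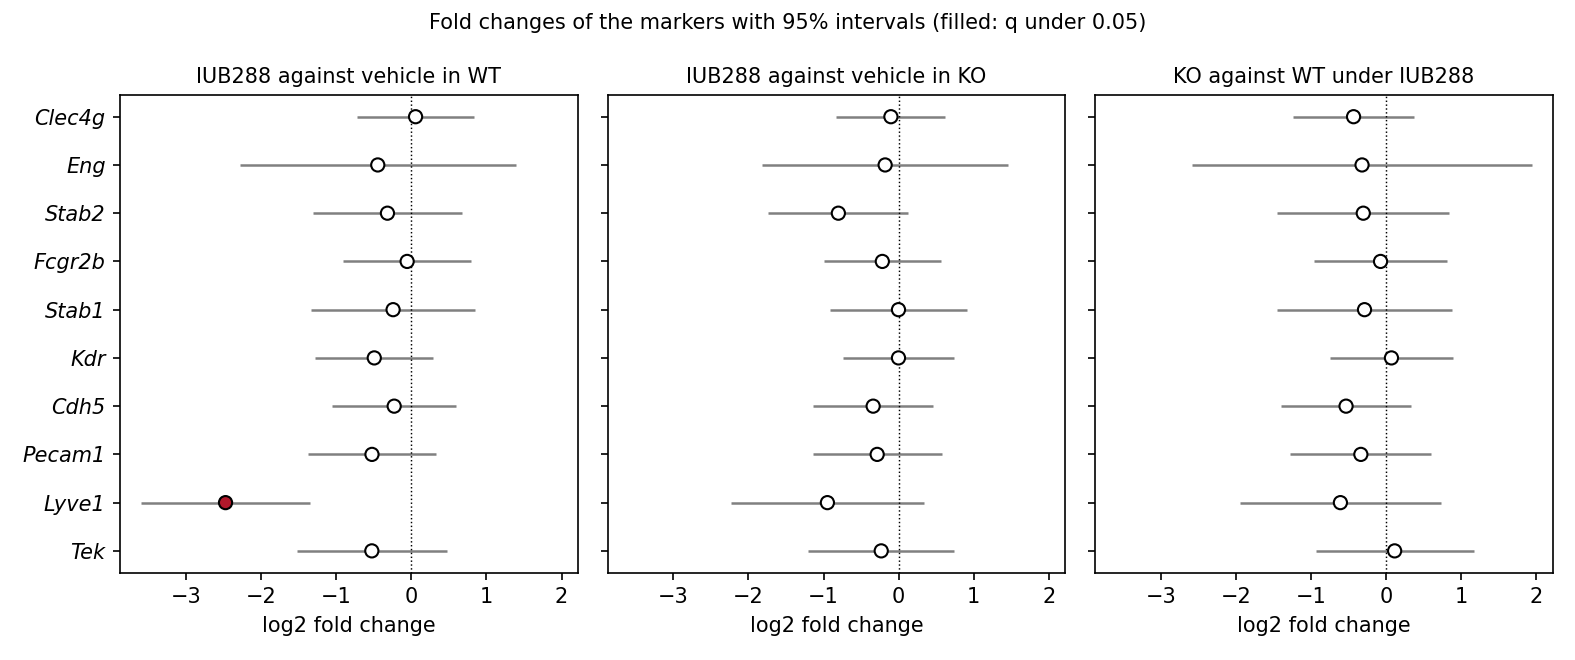
Log2 fold changes (horizontal axis, IUB288 over vehicle or KO over WT) of the 10 markers with 95% intervals from the implied standard errors, for IUB288 against vehicle in WT, IUB288 against vehicle in KO, and KO against WT under IUB288. The filled point, Lyve1 in WT at -2.47, is the single called value, and Eng has the widest intervals in each panel.

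In KO livers none of the 10 markers was called for IUB288 against vehicle, in either direction, by the authors' Cuffdiff q-value, beside 2.37% of 13822 tested loci called lower and 3.13% called higher. At an unadjusted p under 0.05 there were 2, Lyve1 and Stab2, where 14.8% of the tested loci pass that limit, and normal p-values from the test statistic called 0 as well. All 10 fold changes lay below 0, against 50.2% of tested loci, with a median of -0.22 against -0.0022 over all tested loci and -0.03 over tested loci of 0.5 to 50 FPKM. The markers' FPKM summed to 76.3 in KO IUB288 livers and 91.3 in KO vehicle livers, a ratio of 0.835, beside 0.844 in WT.

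Lyve1 had 0.532 FPKM in KO IUB288 livers and 1.03 FPKM in KO vehicle livers in the authors' deposited table (-0.95 ± 0.66, p = 0.0404, q = 0.300). Stab2 had 10.4 FPKM in KO IUB288 livers against 18.1 FPKM in KO vehicle livers in the authors' deposited table (-0.80 ± 0.48, p = 0.0194, q = 0.191). Its interval of -1.74 to 0.13 includes 0 because the errors implied by the test statistic were 1.42 times as large, at the markers' median in this table, as those implied by the deposited p-values. Stab1 and Kdr had nearly the same level with and without IUB288: 6.97 and 6.98 FPKM for Stab1 in KO IUB288 and KO vehicle livers, and 4.24 FPKM in both for Kdr, per the authors' deposited table. Their intervals were -0.91 to 0.90 for Stab1 and -0.75 to 0.74 for Kdr, which still allow changes of either sign.

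Of the remaining markers in KO, Cdh5 had 2.97 FPKM in KO IUB288 and 3.76 FPKM in KO vehicle livers (-0.34 ± 0.41, q = 0.684, the authors' deposited table). Pecam1 had 2.75 and 3.35 FPKM in KO IUB288 and KO vehicle livers in the authors' deposited table (-0.29 ± 0.44, q = 0.783). Tek had 1.11 and 1.30 FPKM (-0.23 ± 0.50, q = 0.874) and Fcgr2b 11.97 and 13.9 FPKM (-0.22 ± 0.40, q = 0.834) in the same groups of the authors' deposited table. Eng had 11.8 and 13.4 FPKM (-0.18 ± 0.84, q = 0.951) and Clec4g 23.6 and 25.3 FPKM (-0.10 ± 0.37, q = 0.932) in KO IUB288 and KO vehicle livers, per the authors' deposited table. Fpgs, the neighbour of Eng, rose in KO as well, with 141 FPKM in KO IUB288 livers and 67.0 FPKM in KO vehicle livers (1.08 ± 0.46, q = 0.0122, the authors' deposited table).

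The response to IUB288 of no marker was shown to differ between KO and WT. The difference of the log2 fold changes, KO minus WT, was tested at all 13521 loci with both values, of which 14, or 0.104%, had an adjusted p under 0.05. For Lyve1 it was 1.52 ± 0.87, from -0.95 in KO and -2.47 in WT in the authors' deposited tables, with an interval of -0.19 to 3.23 (p = 0.0807, adjusted p = 1.00). The call of Lyve1 in WT alone is therefore not evidence of a different response in KO. The other 9 differences ran from -0.49 ± 0.69 (Stab2) to 0.49 ± 0.55 (Kdr), each with an adjusted p of 1.00. None of the 10 had an unadjusted p under 0.05, beside 1.08% of those loci, and with errors taken from the deposited p-values 1 did, Lyve1, and 0 passed the adjustment.

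**Figure D3:**
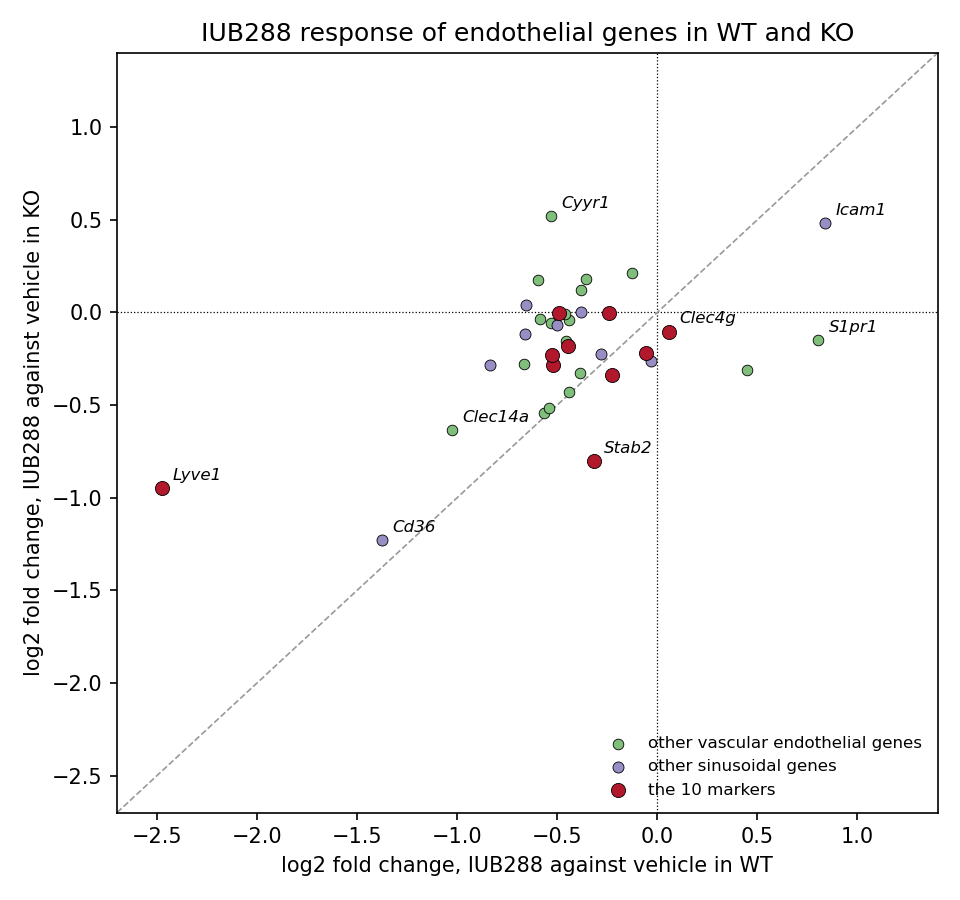
Log2 fold change by IUB288 in KO (vertical axis) against that in WT (horizontal axis) for the 10 markers, 9 tested genes known from sinusoidal endothelium and 18 general endothelial genes, each point a gene and the dashed line marking equal responses. Lyve1 stands apart at -2.47 in WT and -0.95 in KO, Cd36 lies near the line, and most other points lie below 0 in WT.

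Under IUB288 the KO and WT livers were also compared directly. That comparison uses the same IUB288 mice as the treatment comparisons, so its values are not independent of them. None of the 10 markers was called by the authors' Cuffdiff q-value, beside 0.216% of 13918 tested loci called lower and 0.323% called higher, none had an unadjusted p under 0.05, where 4.12% of the tested loci did, and normal p-values from the test statistic called 0. Their median log2 fold change was -0.31, with 8 of 10 below 0, against -0.01 and 52.2% over all tested loci and -0.00027 over tested loci of 0.5 to 50 FPKM. Their FPKM summed to 72.5 in KO IUB288 livers and 89.4 in WT IUB288 livers.

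Lyve1 had 0.505 FPKM in KO IUB288 and 0.770 FPKM in WT IUB288 livers in the authors' deposited genotype table (-0.61 ± 0.68, p = 0.211, q = 1.00). Cdh5 had the next lowest fold change, with 2.82 FPKM in KO IUB288 and 4.08 FPKM in WT IUB288 livers (-0.53 ± 0.44, p = 0.0841, q = 1.00, the authors' deposited table). Clec4g had 22.4 FPKM in KO IUB288 livers against 30.2 FPKM in WT IUB288 livers in the authors' deposited table (-0.43 ± 0.41, p = 0.140, q = 1.00). Pecam1 (-0.34 ± 0.48), Eng (-0.32 ± 1.15), Stab2 (-0.30 ± 0.59), Stab1 (-0.29 ± 0.59) and Fcgr2b (-0.07 ± 0.45) lay below 0, and Kdr (0.07 ± 0.42) and Tek (0.11 ± 0.54) above it, each at q = 1.00 in the authors' deposited table.

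The vehicle groups were not compared by the authors in a table analysed here, so the levels of KO vehicle and WT vehicle livers can only be set side by side, across tables scaled separately and with no test. Lyve1 had 1.03 FPKM in KO vehicle livers and 4.61 FPKM in WT vehicle livers in the authors' deposited tables, which is 4.48-fold lower in KO. The log2 ratio of Lyve1 was -2.16 taken directly and -2.13 when chained through the table of KO against WT under IUB288. The chained value uses the same vehicle levels and differs only by the scaling of the tables, so it is not a second estimate. A ratio as low or lower was found at 56 loci, or 0.413% of the 13546 tested in both treatment tables. The median log2 ratio of the 10 markers was -0.45, with 80% below 0, against 0.00081 and 49.9% over those loci. Eng (-0.62), Pecam1 (-0.61), Stab1 (-0.56), Cdh5 (-0.45), Kdr (-0.45), Clec4g (-0.31) and Tek (-0.21) had log2 ratios below 0, and Fcgr2b (0.05) and Stab2 (0.15) above 0. WT vehicle livers are thus the group in which Lyve1 was high, and the IUB288 fold change in WT rests on that level.

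Other genes known from sinusoidal endothelium were mostly uncalled too, except 1 that fell in both genotypes. Of 9 tested genes of that list 1 fell and 0 rose in WT, 1 fell and 0 rose in KO, and 0 changed between KO and WT, with medians of -0.50, -0.12 and -0.20. Below 0 lay 8 of the 9 in WT, 6 in KO and 8 in KO against WT. Counts of this and the following lists stand beside the shares of all tested loci called lower and higher. Those shares were 3.4% and 3.96% in WT, 2.37% and 3.13% in KO, and 0.216% and 0.323% in KO against WT. A count of 1 rests on a single gene. The gene that fell was Cd36, a fatty acid and thrombospondin receptor that hepatocytes and macrophages also make. It had 11.5 FPKM in WT IUB288 livers and 30.0 FPKM in WT vehicle livers (-1.38 ± 0.41, q = 0.00163, the authors' deposited table). In KO it had 8.93 FPKM with IUB288 and 20.9 FPKM with vehicle (-1.23 ± 0.37, q = 0.00189, the authors' deposited table). Icam1 and Dnase1l3 had the highest fold changes of the tested genes in WT, and neither was called. Icam1, an adhesion molecule gene, had 7.80 FPKM in WT IUB288 and 4.36 FPKM in WT vehicle livers (0.84, q = 0.10, the authors' deposited table). Dnase1l3, a secreted DNase, had 11.0 and 11.2 FPKM in the same groups (-0.03, q = 0.977, the authors' deposited table).

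General endothelial genes lay mostly below 0 in WT without passing the test. Of 18 tested, 1 fell, 0 rose and 16 lay below 0, with a median of -0.46. In KO and in KO against WT none was called, 13 lay below 0 in each, and the medians were -0.11 and -0.14. The gene that fell was Clec14a, an endothelial lectin, with 1.24 FPKM in WT IUB288 and 2.53 FPKM in WT vehicle livers (-1.03 ± 0.48, q = 0.0480, the authors' deposited table). The highest of the list in WT vehicle livers, Egfl7, a secreted endothelial protein, had 16.1 and 17.6 FPKM in WT IUB288 and WT vehicle livers in the authors' deposited table (-0.13 ± 0.45, q = 0.912).

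Of 9 tested markers of continuous, arterial or activated endothelium 1 fell in WT. That was Efnb2, the arterial ephrin-B2, at 0.234 FPKM in WT IUB288 and 0.703 FPKM in WT vehicle livers (-1.59 ± 0.70, q = 0.0375, the authors' deposited table). None of 9 was called in KO and none of 6 in KO against WT. The highest of the list in WT vehicle livers was Plvap, a component of the diaphragms of endothelial pores and thus not particular to continuous endothelium. It had 34.0 and 34.9 FPKM in WT IUB288 and WT vehicle livers in the authors' deposited table (-0.04 ± 0.48, q = 0.977).

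Among endothelial transcription factors 1 of 12 tested fell in KO, with a list median of -0.39. It was Maf, a regulator of sinusoidal identity, at 5.60 FPKM in KO IUB288 and 9.97 FPKM in KO vehicle livers (-0.83 ± 0.38, q = 0.0398, the authors' deposited table). In WT Maf had 5.93 FPKM with IUB288 and 10.7 FPKM with vehicle, a change of like size that missed the threshold (-0.86 ± 0.42, q = 0.0531, the authors' deposited table), and the difference KO minus WT was 0.02 ± 0.56 (adjusted p = 1.00). In WT 0 of 16 were called by the authors' q-value, with 13 below 0 and a median of -0.65, and in KO against WT 0 of 12, with a median of -0.04. Hhex, the highest of the list in WT vehicle livers and also a hepatocyte gene, had 50.7 FPKM in WT IUB288 and 30.1 FPKM in WT vehicle livers (0.75 ± 0.39, q = 0.0793, the authors' deposited table).

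The ligands and co-receptors around Kdr and Tek changed in both directions. Of 10 tested genes of the VEGF and angiopoietin pathway 1 rose and 1 fell in WT, of 9 in KO 2 rose and 1 fell, and of 9 in KO against WT none was called. Vegfb, a VEGFR1 ligand, rose to 45.5 FPKM in WT IUB288 livers, against 23.9 FPKM in WT vehicle livers (0.93 ± 0.44, q = 0.0439, the authors' deposited table). In KO Vegfb rose to 38.3 FPKM, against 19.0 FPKM with vehicle (1.01 ± 0.41, q = 0.0154, the authors' deposited table). Nrp2, a co-receptor for VEGF-C and semaphorins, fell to 0.817 FPKM in WT IUB288 livers, against 2.35 FPKM in WT vehicle livers (-1.53 ± 0.50, q = 0.00163), and in KO to 0.889 FPKM against 2.64 FPKM with vehicle (-1.57 ± 0.45, q = 0.00189), per the authors' deposited tables. Figf, the gene of VEGF-D, had 2.03 FPKM in KO IUB288 and 0.551 FPKM in KO vehicle livers (1.88 ± 0.61, q = 0.00628), and in WT 1.52 FPKM with IUB288 and 0.810 FPKM with vehicle without passing (0.91 ± 0.66, q = 0.266), per the authors' deposited tables. Vegfa, the ligand of Kdr and the highest of the list in WT vehicle livers, had 35.8 FPKM in WT IUB288 and 48.3 FPKM in WT vehicle livers in the authors' deposited table (-0.43 ± 0.43, q = 0.492).

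Around endoglin, 1 of 13 tested genes of the BMP and TGF-beta pathway rose in WT, and none was called in KO or in KO against WT. Id3, an inhibitor of basic helix-loop-helix factors and a target of BMP signalling, had 64.1 FPKM in WT IUB288 and 20.6 FPKM in WT vehicle livers (1.64 ± 0.41, q = 0.00163, the authors' deposited table). In KO it had 35.7 FPKM with IUB288 and 24.3 FPKM with vehicle (0.56 ± 0.38, q = 0.285, the authors' deposited table), and the difference KO minus WT was -1.08 ± 0.56 (p = 0.0539, adjusted p = 1.00). The list's medians were -0.16 in WT, -0.19 in KO and 0.01 in KO against WT.

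In the hyaluronan pathway Lyve1 was the single called gene of 5 tested in WT, and none was called in KO or in KO against WT. Hyal1, a lysosomal hyaluronidase, is listed as 1 locus together with Hyal3 and Nat6, so its own level was not measured. That locus, the highest of the list in WT vehicle livers, had 46.8 FPKM in WT IUB288 and 53.6 FPKM in WT vehicle livers in the authors' deposited table (-0.20 ± 0.44, q = 0.836). The synthase genes Has1, Has2 and Has3 were not tested in any table, with Has2 listed at 0 in all groups. Of 9 genes of cadherin junctions none was called in any comparison, with medians of -0.14 in WT, -0.23 in KO and -0.01 in KO against WT. Ctnnb1, beta-catenin, was the highest of them in WT vehicle livers and had 38.6 and 39.9 FPKM in WT IUB288 and WT vehicle livers (-0.05 ± 0.39, q = 0.966, the authors' deposited table). Of the signals that endothelium sends to hepatocytes, such as Wnt2, Rspo3 and Bmp2, none of 9 was called in WT and none of 8 in KO or in KO against WT, with medians of -0.41, -0.03 and 0.11. Their highest gene in WT vehicle livers, the chemokine Cxcl12, had 149 FPKM in WT IUB288 and 95.5 FPKM in WT vehicle livers in the authors' deposited table (0.64 ± 0.47, q = 0.297).

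Markers of other liver cells moved in the same comparisons, and their part in the results above was not tested. Of 12 stellate cell markers, all tested, 5 fell and 0 rose in WT, beside 3.4% and 3.96% of all tested loci. All 12 lay below 0, with a median of -0.93 and sums of 85.5 FPKM in WT IUB288 and 156 FPKM in WT vehicle livers. The collagen genes Col1a1 (-2.88 ± 0.54) and Col3a1 (-2.47 ± 0.45) fell by about as much as Lyve1, and Col1a2 also fell, at -2.07 ± 0.50, each at q = 0.00163 in the authors' deposited table. Dcn, the matrix proteoglycan decorin and the highest of the list in WT vehicle livers, had 49.4 FPKM in WT IUB288 and 84.7 FPKM in WT vehicle livers without passing (-0.78 ± 0.40, q = 0.0720, the authors' deposited table). In KO 1 of 12 fell, Col3a1 (-1.38 ± 0.41, q = 0.00189, the authors' deposited table), with a list median of -0.21 and sums of 94.0 FPKM in KO IUB288 and 108 FPKM in KO vehicle livers. In KO against WT none was called, with a median of 0.30 and sums of 89.3 FPKM in KO IUB288 and 79.4 FPKM in WT IUB288 livers. None of the 12 was at 0 in any group.

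Some macrophages also make Lyve1, Stab1 or Fcgr2b, and the part of macrophages in those values was not tested. In WT all 13 macrophage markers lay above 0, with a median of 0.52, and 1 rose. That was the scavenger receptor gene Marco, at 12.8 FPKM in WT IUB288 and 4.78 FPKM in WT vehicle livers (1.42 ± 0.50, q = 0.00301, the authors' deposited table). Their sums were 307 FPKM in WT IUB288 and 204 FPKM in WT vehicle livers. In KO none was called, 12 lay below 0, the median was -0.30 and the sums were 117 FPKM in KO IUB288 and 146 FPKM in KO vehicle livers. In KO against WT 6 of 13 fell, beside 0.216% of all tested loci called lower. All 13 lay below 0, with a median of -1.21 and sums of 111 FPKM in KO IUB288 and 285 FPKM in WT IUB288 livers. The 3 largest were Marco (-2.10 ± 0.52), C1qa (-1.49 ± 0.42) and C1qb (-1.49 ± 0.43), each at q = 0.0118 in the authors' deposited table. None of the 13 was at 0. C1qb, the highest of the list in WT vehicle livers, had 56.7 FPKM in WT IUB288 and 38.3 FPKM in WT vehicle livers in the authors' deposited table (0.57 ± 0.42, q = 0.307).

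Lymphatic endothelium was hardly measured. Of its markers Pdpn had 0.175 FPKM in WT IUB288 and 0.403 FPKM in WT vehicle livers (q = 0.432) and Mmrn1 0.0304 and 0.0724 FPKM, untested, in the authors' deposited table. Of 3 tested in WT 1 fell, Reln, a matrix protein gene that stellate cells also express, at 1.97 FPKM in WT IUB288 and 4.70 FPKM in WT vehicle livers (-1.26 ± 0.41, q = 0.00163, the authors' deposited table). None of 2 was called in KO or in KO against WT. Prox1, also a hepatocyte gene and the highest of the list in WT vehicle livers, had 15.1 FPKM in WT IUB288 and 11.9 FPKM in WT vehicle livers (0.35 ± 0.43, q = 0.622, the authors' deposited table).

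Leukocyte and platelet genes were low, and none was called of 10 tested in WT, 8 in KO and 9 in KO against WT. S100a8, a neutrophil gene and the highest of them in WT vehicle livers, had 3.13 FPKM in WT IUB288 and 1.91 FPKM in WT vehicle livers (0.71 ± 1.01, q = 0.695, the authors' deposited table). The listed genes summed to 17.5 FPKM in WT IUB288 and 10.2 FPKM in WT vehicle livers, to 9.13 FPKM in KO IUB288 and 6.82 FPKM in KO vehicle livers, and to 8.67 FPKM in KO IUB288 and 16.2 FPKM in WT IUB288 livers of the genotype table. Of the bile duct markers Krt23 fell in WT (-2.57 ± 0.66, q = 0.00163) and in KO (-1.71 ± 0.67, q = 0.0233) in the authors' deposited tables, 1 of 6 and 1 of 5 tested, and none of 5 was called in KO against WT. The highest bile duct marker in WT vehicle livers, Spp1, had 12.5 FPKM in WT IUB288 and 19.3 FPKM in WT vehicle livers (-0.63 ± 0.42, q = 0.232, the authors' deposited table). Hepatocyte genes were by far the highest. Apoa1, an apolipoprotein gene, had 3714 FPKM in WT IUB288 and 12882 FPKM in WT vehicle livers in the authors' deposited table. Ahsg, the fetuin-A gene, had 4062 FPKM in WT IUB288 and 3996 FPKM in WT vehicle livers there. Alb, the albumin gene, was flagged LOWDATA and untested in both treatment tables. It was listed at 9581 FPKM in WT IUB288 and 9284 FPKM in KO IUB288 livers, and at 0 in WT vehicle and KO vehicle livers. Such a 0 for albumin in liver is not a usable level. Of 6 hepatocyte genes tested in each treatment table Apoa1 fell in WT (-1.79 ± 0.69, q = 0.0113) and in KO (-1.39 ± 0.61, q = 0.0276), and none of 7 was called in KO against WT, per the authors' deposited tables.

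**Figure D4:**
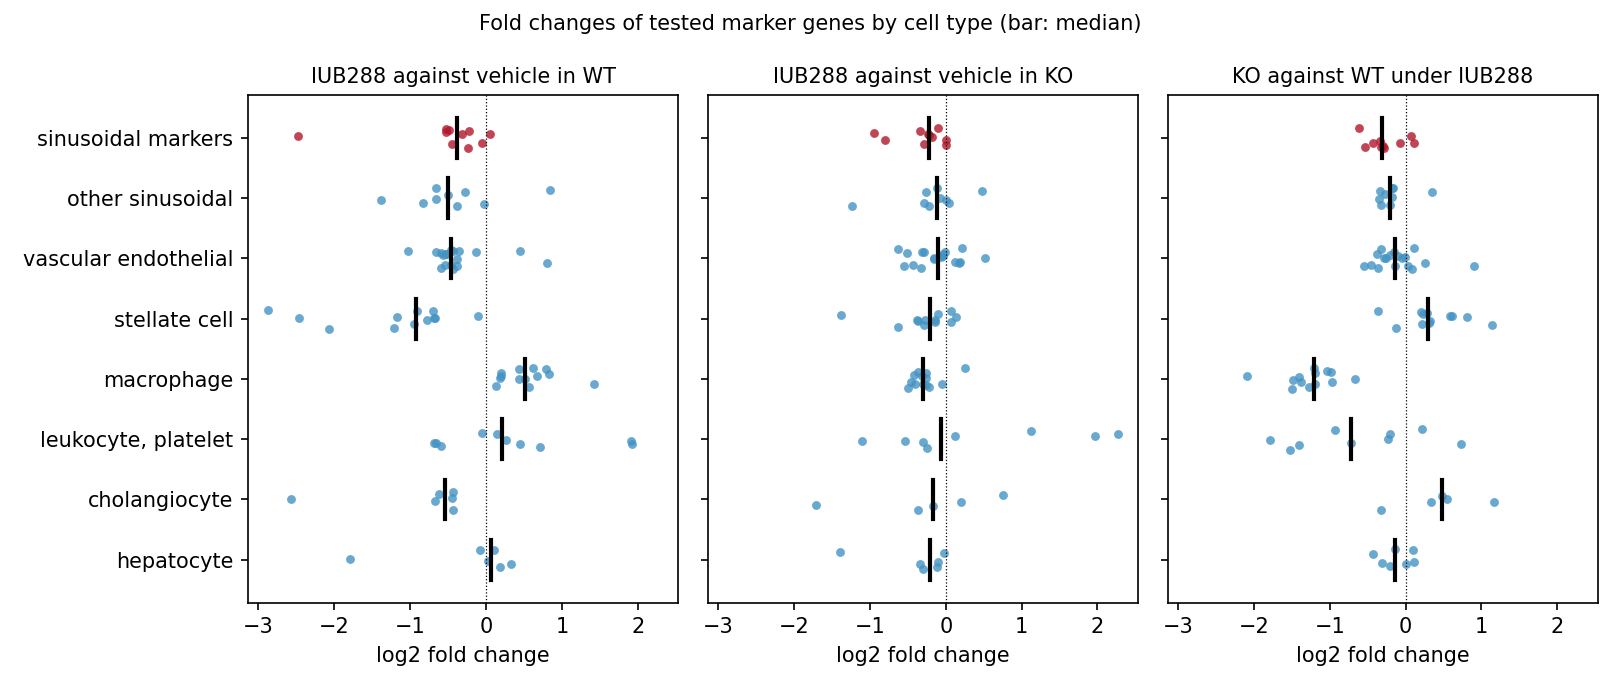
Log2 fold changes (horizontal axis) of tested marker genes by cell type, each point a gene and each black bar the list's median, for IUB288 against vehicle in WT, IUB288 against vehicle in KO, and KO against WT under IUB288. The sinusoidal markers' medians are -0.38, -0.22 and -0.31; stellate cell markers have a median of -0.93 in WT and macrophage markers one of -1.21 in KO against WT.

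Genes whose 3 fold changes were nearest to those of Lyve1 were looked for among 9418 loci with 1 symbol, a test in every table and at least 1 FPKM in every group. The measure was the Euclidean distance over the log2 fold changes of the 3 tables, which share groups, so that they are not independent. The nearest was Maff (distance 0.70), a small Maf transcription factor, with changes of -2.22 in WT, -1.27 in KO and -0.05 in KO against WT. 8430408G22Rik (0.72) had -2.18, -1.30 and -0.05 in the same order, and Trib3 (0.73), a stress-induced pseudokinase, -1.77, -0.81 and -0.52. Slc20a1 (0.74), a phosphate transporter, had -2.32, -1.05 and 0.11, and Pltp (0.74), the phospholipid transfer protein, -1.96, -1.17 and -0.12. The first 4 of these were called in WT at q = 0.00163 in the authors' deposited table, and Pltp was not (q = 0.120). None of the 5 belongs to a list of endothelial genes used here, but those lists hold few of the 9418 loci. The limit of 1 FPKM also left out listed genes such as Efnb2 and Erg, and Lyve1 itself falls under it with IUB288. The absence of listed genes among the 5 therefore says nothing about Lyve1.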

How the data were processed

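Liver RNA was extracted with TRIzol and sequenced from TruSeq RNA libraries, per the labels' protocols. The submitters' processing notes list Cuffdiff (no version given), Cufflinks 2.2.1, Bowtie2 2.2.3, TopHat2 2.0.12, Trim Galore 0.4.0 and bcl2fastq 1.8.4. Of the hg19 and mm10 builds named in those notes, the loci match mm10, and coordinates are 1-based. The authors deposited 3 full tables with 1 pooled FPKM value per group and locus. For each locus the authors also deposited a p-value, a q-value, a log2 fold change and a test statistic, which is a score without a set range. Shorter sheets of selected loci were not used.

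The standard error was taken as the log2 fold change over the test statistic. KO and WT responses were compared by a z test on these errors, adjusted by Benjamini-Hochberg over all loci. A check on simulated data drew its noise from these same errors, so it could not show whether their size is right. In the data 1.08% of 13521 loci had an unadjusted p under 0.05 by this z test, so it is strict and can miss a difference. Levels were tested only within a table. The 10 markers, the other 15 lists, the tests and the alternatives were chosen with earlier results of these data known. Named were all 10 markers, of each other list up to 3 called genes per table with the largest fold changes and the gene highest in WT vehicle livers, and the 5 nearest to Lyve1. Other genes, such as Icam1, Dnase1l3, Ahsg, Alb, Pdpn, Mmrn1, the Has genes, Fpgs and Nt5dc2, were named after their values were seen. A symbol with several loci was read at its most highly expressed one. The alternatives were other thresholds, normal p-values from the statistic, an FPKM minimum, pseudocounts, centring and other sets of markers. Depth per library is unknown, so no counting interval was computed. Columns per sample left without a match numbered 0. Scripts ran under Python 3.11.15 with scipy 1.17.1, pandas 2.3.3, numpy 2.4.6 and matplotlib 3.10.9. No sequence is printed, since the tables measure whole loci.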

Additional observations from a re-analysis of the deposited data

How the results depend on the processing

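The counts of called markers stayed at 1 lower in WT and 0 elsewhere at q under 0.10. They did so too with an FPKM minimum of 1 and with normal p-values. At q under 0.01 Lyve1 stayed called in WT, while counts of 0 could only stay at 0. In KO against WT 0 loci in all pass q under 0.01, so that setting says nothing there. Centring re-read only the sign of markers already called, so it could add no call. Over all loci the counts moved: at q under 0.01 they were 642 in WT, 489 in KO and 0 in KO against WT, beside 1117, 761 and 75 at q under 0.05. Normal p-values from the test statistic called 392 in WT, 304 in KO and 28 in KO against WT, and the cause of these shifts was not tested beyond the stricter threshold itself. The markers' median stayed below 0 under all settings run, from -0.59 to -0.29 in WT, from -0.31 to -0.18 in KO and from -0.32 to -0.22 in KO against WT. These include settings added after the data were seen, without Lyve1 (-0.32, -0.22 and -0.30), without Lyve1, Stab1, Fcgr2b and Pecam1 (-0.38, -0.21 and -0.31), and without Eng and Stab1 (-0.41, -0.26 and -0.32). The change of Lyve1 in WT was -1.62 with a pseudocount of 1. With errors from the p-value the difference KO minus WT gave 1 marker with an unadjusted p under 0.05 in place of 0.

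No paired analysis was possible because the tables give no value per mouse and the titles number animals, not pairs. For the same reason no mouse was left out in turn. Of the results that answer a comparison, 71 of the values under other settings stayed close and 6, all given above, moved. A median counted as close if it shifted by less than the markers' median standard error. That was 0.47 in WT, 0.45 in KO and 0.51 in KO against WT, larger than the medians themselves. Some settings also could not change the counts, so the 71 does not measure how firm the results are. Errors are pooled estimates from 2 mice per group, so a level carried by 1 mouse would hardly show.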

Other observations

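Beyond the markers, 5 of 132 other listed genes had an unadjusted p under 0.05 for the difference of the IUB288 response, KO minus WT, or 3.79%, beside 1.08% of all 13521 loci, and none passed the adjustment over those loci. They were named after their values were seen and are given as values only. Col1a1, a stellate cell collagen gene, had the widest gap, with a log2 fold change of -0.36 in KO and -2.88 in WT in the authors' deposited tables (difference 2.52 ± 0.74, p = 0.000729, adjusted p = 0.429). Col1a2 followed with a difference of 1.69 ± 0.68 and Lrat, which makes the retinyl esters that stellate cells store, with 1.35 ± 0.58. In the authors' deposited tables the transcription factor gene Hhex had -0.36 in KO and 0.75 in WT (-1.12 ± 0.54, p = 0.0381, adjusted p = 1.00), and the macrophage gene Cd5l -0.26 in KO and 0.83 in WT (-1.08 ± 0.54, p = 0.0454, adjusted p = 1.00). Among general endothelial genes S1pr1, a receptor that steadies vessel barriers, had 22.1 FPKM in WT IUB288 and 12.7 FPKM in WT vehicle livers (0.81, q = 0.0610), and 19.7 FPKM in KO IUB288 and 21.9 FPKM in KO vehicle livers (-0.15, q = 0.885), in the authors' deposited tables. S1pr1 was also named after its values were seen.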
